A study of Mus musculus with 3 samples.

Results

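The genes described here are Trp53, which encodes the transcription factor p53, and 7 genes of its circuit: Mdm2, Mdm4, Cdkn1a, Ccng1, Zmat3, Trp53inp1 and Phlda3. They were taken by symbol, 8 of the 32285 genes in the deposited gene lists. The rule used no expression value, but the genes were chosen with earlier results of these data known. The data are single-cell RNA counts from E14, a mouse embryonic stem cell line of the 129/Ola background, cultured on gelatin in medium with serum and leukaemia inhibitory factor. The control culture received 0.007% ethanol, the vehicle, for 6 h. A second culture received 250 µg/mL cycloheximide, a blocker of translation elongation, in the same vehicle for 3 h, and the third received that dose for 6 h. Cells of each culture were trypsinised, frozen and thawed before barcoding with 10x Genomics 3' chemistry. Each condition is 1 library, so no ratio below has a replicate check and no p-value is given, and the 3 h library has no vehicle control of equal duration. The intervals are 95% intervals that cover counting error only.

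As background, p53 is held at a low level in unstressed cells by the ubiquitin ligase Mdm2 and its partner Mdm4, which binds and inhibits p53. Stress that frees p53 from them lets it bind paired half-site elements in DNA and switch on genes that halt the cell cycle, repair DNA or kill the cell, and Mdm2 is itself one of these genes, which closes a feedback loop. p53 and Mdm2 are both short-lived proteins made by translation, the step that cycloheximide blocks, and the present data hold RNA only, not protein.

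The libraries held 127601369 unique molecular identifiers (UMIs, each 1 captured RNA molecule) in the control, 115188502 after 3 h and 150987519 after 6 h. Barcodes with at least 15000 UMIs of which 1 to 20% were mitochondrial were taken as cells, which gave 2187, 1739 and 2554 cells with a median of 43160, 51726 and 46200 UMIs. The lower mitochondrial limit left out 62 control barcodes, 1 after 3 h and 8 after 6 h. Libraries shared 1 to 3 cell barcodes in each pair. Each of 10 stem cell markers reached 10 CPM (UMIs per 1000000 UMIs of the cells), with a summed level of 7303 CPM in the control, 8288 after 3 h and 7385 after 6 h. The 7 fibroblast markers summed to between 1.99 and 2.93 CPM, the 4 trophoblast markers to between 0.691 and 1.48 and the 5 markers of the 2-cell-like state to between 0 and 0.592. The 7 endoderm markers summed to between 21.6 and 28.2 CPM, and the 6 mesoderm and neural markers to 78.1, 52.7 and 33.2 CPM in the control, 3 h and 6 h libraries. Of that last sum Tubb3, a neural tubulin, made up 65.3, 35.1 and 18.6 CPM, and the other 5 markers were each at 10.2 CPM or less in each library.

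Promoter sequence from RefSeq on GRCm38.p6 covered 6 of the 8 genes in 8 windows of 300 bases, from 250 before to 50 after an annotated start. They are shown because the results turn on whether these genes move together and on Cdkn1a, which stands apart from the others. The windows were searched for the p53 half-site consensus of 10 bases, which reads the same on both strands, and for a full site, meaning 2 adjoining half-sites with at most 1 mismatch over the 20 bases. A full site was found in 29 of 32851 windows of all genes, which is 0.0883%, and 2 of those were windows of Cdkn1a and Ccng1. A half-site was found in 8.36% of all windows and in 4 of the 8 here, those of Trp53, Mdm2, Cdkn1a and Ccng1. A match is a run of letters, and no binding was measured here. The full site of Cdkn1a, at chr17:29090928-29090947 on the + strand, begins 51 bases before the upstream RefSeq start of the gene and 2841 bases before the downstream start. Both of its half-sites carry ACATGT, a hexamer found in 5.28% of all windows on either strand. The full site of Ccng1, at chr11:40755462-40755481 on the - strand, begins 195 bases before its start. Below are the 250 bases before each start, 5′ to 3′ on the strand of the gene, with the full site in capitals, for Cdkn1a at chr17:29090729-29090978 and for Ccng1 at chr11:40755287-40755536.
Cdkn1a: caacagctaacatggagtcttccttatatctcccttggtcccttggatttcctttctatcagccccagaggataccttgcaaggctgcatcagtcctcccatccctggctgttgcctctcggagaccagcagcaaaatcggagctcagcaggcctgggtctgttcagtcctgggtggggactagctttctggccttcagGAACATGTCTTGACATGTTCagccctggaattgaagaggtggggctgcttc
Ccng1: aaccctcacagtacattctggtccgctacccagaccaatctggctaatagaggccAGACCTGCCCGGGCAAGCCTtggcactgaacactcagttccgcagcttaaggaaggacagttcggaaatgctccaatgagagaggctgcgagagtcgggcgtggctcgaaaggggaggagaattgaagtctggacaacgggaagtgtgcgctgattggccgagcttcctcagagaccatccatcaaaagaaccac

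Sequence outside the windows was not searched, so a gene without a full site here may have one elsewhere, Mdm2 and Trp53 included. Within the windows, the half-sites of Mdm2 and Trp53 stand alone, with no second half-site adjoining them within 1 mismatch. They begin 186 and 75 bases before the starts, and are shown in capitals with 25 bases on each side, at chr10:117710910-117710969 on the - strand for Mdm2 and chr11:69580259-69580318 on the + strand for Trp53.
Mdm2: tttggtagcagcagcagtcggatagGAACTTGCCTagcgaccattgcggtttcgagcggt
Trp53: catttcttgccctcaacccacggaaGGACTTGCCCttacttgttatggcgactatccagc

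Levels were summed over the cells of each library and divided by their UMIs, as CPM. Among 7608 genes averaging 10 CPM or more over the 3 libraries, 13.9% were at least 1.5-fold higher after 3 h than in the control and 2.13% at least 1.5-fold lower. Of the 8 genes, 0 were that much higher after 3 h and 1 was lower, Zmat3. At 6 h, 22.1% of all genes were at least 1.5-fold higher than in the control and 7.79% lower, against 1 of the 8 higher, Cdkn1a, and 0 lower. Between 6 h and 3 h, 1.74% of all genes were at least 1.5-fold higher and 2.52% lower, and again Cdkn1a was the 1 of the 8 that was higher, with 0 lower. At 2-fold, 4.32% of all genes were higher after 3 h, with 0 of the 8, and 8.65% after 6 h, with 1 of the 8, Cdkn1a again. The median log2 ratio of the 8 genes was 0.0058 after 3 h and 0.034 after 6 h, beside 0.11 and 0.17 for all genes. Scaling by trimmed mean of M values (TMM) lowers each log2 ratio to the control by 0.17 after 3 h and 0.29 after 6 h. Counting mean UMIs per cell raises them by 0.27 and 0.11. Over all genes, the counts past 1.5-fold after 3 h were 1057 higher and 162 lower by CPM, 654 and 398 with TMM, and 2289 and 59 per cell. After 6 h they were 1678 higher and 593 lower by CPM, 881 and 1285 with TMM, and 2114 and 418 per cell, so the balance after 6 h turns over with TMM. Ratios smaller than these shifts therefore take their sign from the scaling.

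**Figure D1:**
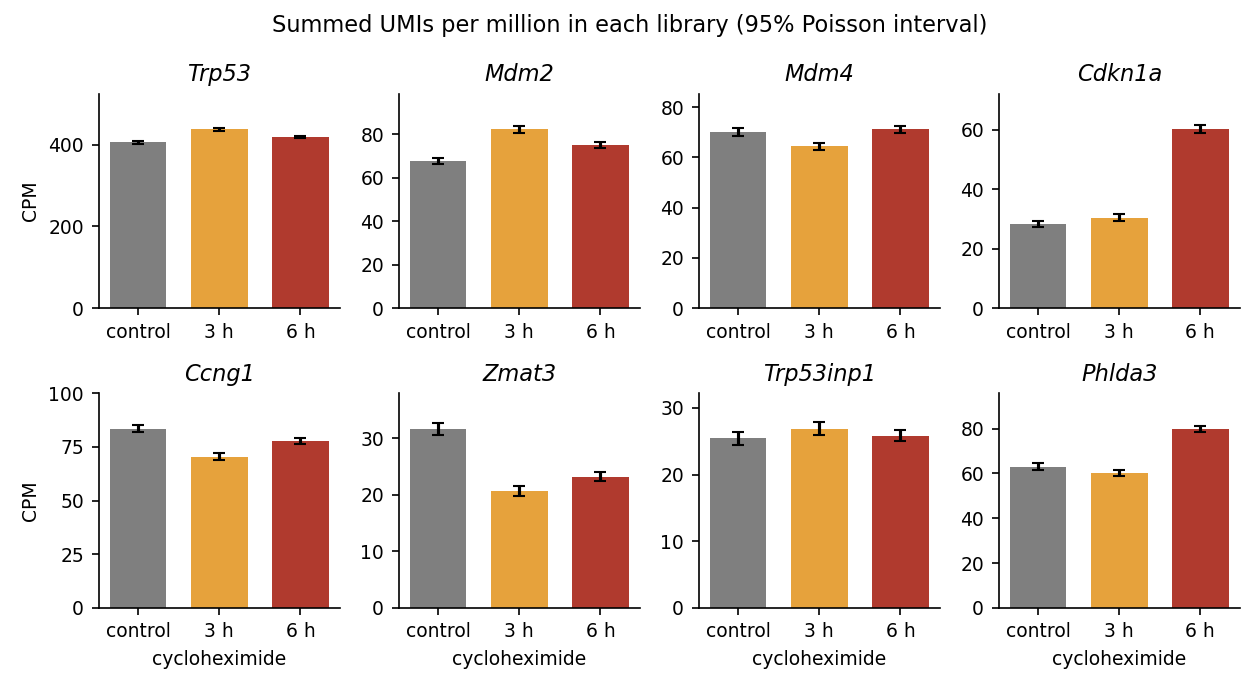
Level of each of the 8 genes in the control, 3 h and 6 h libraries, in CPM (y axis, a separate scale for each gene), as bars from 0 with the 95% Poisson interval of the count. Cdkn1a stands at 28.3 and 30.5 CPM in the control and after 3 h and at 60.1 after 6 h, while Zmat3 is highest in the control at 31.6 CPM.

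Trp53 itself, on chromosome 11 at 69580359 to 69591873 of GRCm38, differed little between the libraries. Its level was 406 CPM in the control, 437 after 3 h and 418 after 6 h, from 45236, 46707 and 58720 UMIs. The log2 ratio to the control was 0.11 (0.09 to 0.13) after 3 h and 0.04 (0.03 to 0.06) after 6 h, and TMM scaling turned both to negative values, -0.07 and -0.24. At 3 h, 3859 of the 7608 genes had a higher ratio than Trp53, close to the middle of all genes. With every cell thinned to 15000 UMIs, so that cells are compared at equal depth, a Trp53 UMI was seen in 99.5% of control cells, 99.7% after 3 h and 99.6% after 6 h. The median cell held 6 thinned Trp53 UMIs in each library. A processed pseudogene, Trp53-ps on chromosome 17, is a near copy of Trp53 and is not in the gene list, so how its reads were counted is not known.

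Mdm2, the ligase that marks p53 for degradation, lies on chromosome 10 at 117688875 to 117710758. It was read at 67.6 CPM in the control (66.1 to 69.1), 82.2 after 3 h (80.5 to 84.0) and 74.9 after 6 h (73.5 to 76.4). The 3 h library was the highest and the control the lowest, and the 3 intervals do not overlap. The log2 ratio to the control was 0.28 (0.24 to 0.33) after 3 h and 0.15 (0.11 to 0.19) after 6 h. The second fell to -0.14 under TMM scaling. Among all genes, 2481 of 7608 had a higher ratio after 3 h.

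Mdm4, which binds p53 and blocks its activation domain, lies on chromosome 1 at 132959484 to 133030561. Its level was 69.9 CPM in the control, 64.3 after 3 h and 71.1 after 6 h. The log2 ratio was -0.12 (-0.17 to -0.07) after 3 h, which became 0.15 when counted per cell, and 0.02 (-0.02 to 0.07) after 6 h. The control and 6 h intervals overlapped.

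Cdkn1a, which encodes the cyclin-dependent kinase inhibitor p21 and is the main arrest gene of the p53 response, lies on chromosome 17 at 29090976 to 29100727. It had 3159 UMIs in the control, 3255 after 3 h and 8435 after 6 h, or 28.3 CPM (27.4 to 29.4), 30.5 CPM (29.4 to 31.5) and 60.1 CPM (58.8 to 61.4). The control and 3 h libraries lay close together and the 6 h library was 2.12-fold above the control. The log2 ratio to the control was 0.10 (0.03 to 0.18) after 3 h, which TMM scaling turned to -0.07, and 1.08 (1.03 to 1.14) after 6 h. The log2 ratio of 6 h to 3 h was 0.98 (0.92 to 1.04), and 11 of the 7608 genes exceeded it. Against the control, 528 genes had a higher ratio after 6 h. A locus annotated as to be experimentally checked on the opposite strand, AC167363.2, overlaps the gene and is not in the gene list, and the strand setting of the counting is not given in the sources used here.

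Ccng1, a cyclin that recruits a phosphatase to Mdm2, lies on chromosome 11 at 40748552 to 40755311. It stood at 83.4 CPM in the control, 70.5 after 3 h and 77.6 after 6 h. The control was the highest library and the log2 ratios were -0.24 (-0.29 to -0.20) and -0.10 (-0.14 to -0.06). Counted per cell, the values were 0.03 and 0.01.

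Zmat3, a zinc finger protein that binds RNA, lies on chromosome 3 at 32334792 to 32366014. It was read at 31.6 CPM in the control, 20.7 after 3 h and 23.1 after 6 h, so both treated libraries were below the control. The log2 ratio was -0.61 (-0.69 to -0.54) after 3 h, with 1.89% of all genes lower, and -0.45 (-0.52 to -0.38) after 6 h. The 3 h value was past the 1.5-fold limit on the CPM scale by a small margin, and inside it when counted per cell.

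Trp53inp1, a nuclear protein of the p53 stress response, lies on chromosome 4 at 11156431 to 11174379. It was level across the libraries at 25.4, 26.9 and 25.9 CPM in the control, 3 h and 6 h. Its log2 ratios were 0.08 (0.003 to 0.15), which TMM scaling turned to -0.10, and 0.02 (-0.05 to 0.09).

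Phlda3, which competes for membrane lipid and so holds back the kinase Akt, lies on chromosome 1 at 135766119 to 135769136. Its level was 63.0 CPM in the control, 60.1 after 3 h and 79.9 after 6 h. The log2 ratio to the control was -0.07 (-0.12 to -0.02) after 3 h and 0.34 (0.30 to 0.39) after 6 h. The ratio of 6 h to 3 h was 0.41 (0.37 to 0.46), lower than that of 477 of the 7608 genes, so Phlda3 had the second highest value of the 8 on this comparison after Cdkn1a. Counted per cell the 3 h ratio is 0.20, and the TMM scale brings the 6 h ratio to the control to 0.06.

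**Figure D2:**
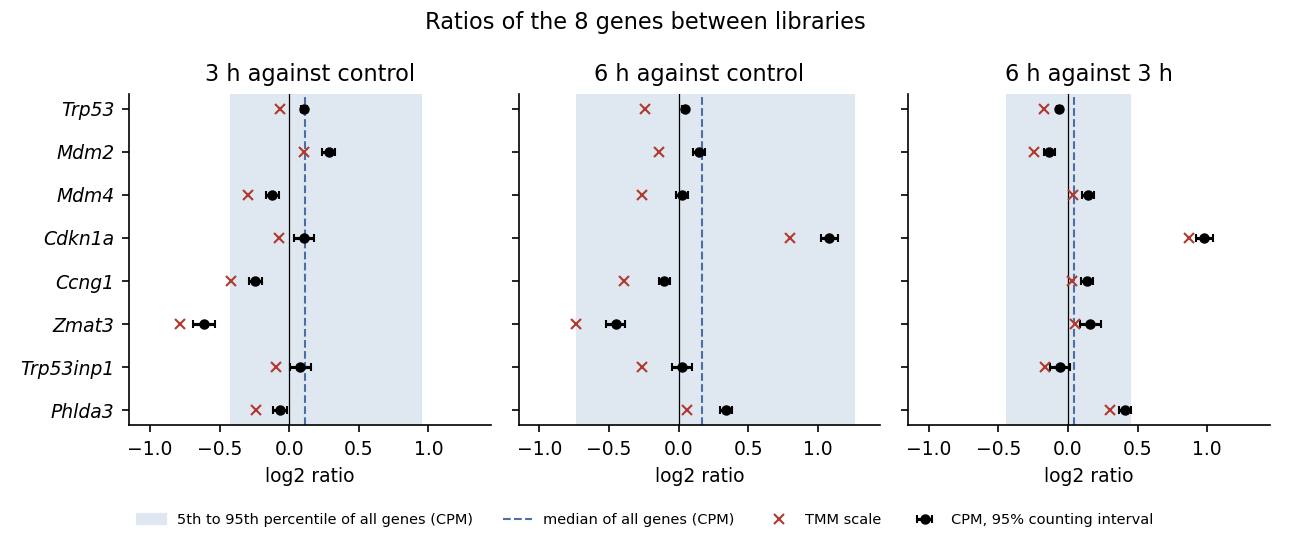
Log2 ratio of each of the 8 genes between libraries (x axis) for 3 h against control, 6 h against control and 6 h against 3 h. Black points are CPM ratios with 95% counting intervals, red crosses the same on the TMM scale, the shaded band the 5th to 95th percentile of 7608 genes and the dashed line their median. Cdkn1a lies beyond the band for 6 h against 3 h, at 0.98, and Zmat3 below it after 3 h, at -0.61.

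The share of cells with a UMI was compared at 15000 UMIs a cell. A Cdkn1a UMI was seen in 30.4% of control cells (28.5 to 32.4%), 26.0% after 3 h (23.9 to 28.1%) and 47.5% after 6 h (45.5 to 49.4%). Without thinning the shares were 59.2%, 54.1% and 76.6%. The 3 h share was below the control while the 3 h CPM was above it, so no order of the control and 3 h libraries is read from the share. The 6 h share was above both, with and without thinning. The spread differed as well. The highest thinned Cdkn1a count in a cell was 7 in the control, 26 after 3 h and 15 after 6 h, and cells with at least 3 UMIs made up 2.74%, 4.08% and 9.32%.

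The excess spread, which is the squared coefficient of variation of thinned UMIs beyond the part that counting alone gives, was 1.14 for Cdkn1a in the control, 5.76 after 3 h and 1.18 after 6 h. The median over genes with at least 0.2 UMIs a cell was between 0.0795 and 0.0852. The other genes apart from Trp53 were also above that median: after 3 h the values were 1.87 for Mdm2, 0.592 for Mdm4, 0.70 for Ccng1, 0.593 for Zmat3, 2.41 for Trp53inp1 and 1.54 for Phlda3. Trp53 was below it, at 0.0347, 0.0158 and 0.0282 in the control, 3 h and 6 h libraries. Zmat3 had 0.240 in the control and 0.140 after 6 h. This measure divides by the squared mean. By the ratio of variance to mean, Cdkn1a had 1.498 in the control, 3.738 after 3 h and 2.029 after 6 h. Its 6 h library therefore lay close to the control by excess spread and above it by this ratio. For Phlda3 the excess spread was 1.54 after 3 h and 1.36 after 6 h. The ratio of variance to mean had the opposite order for Phlda3, 2.44 after 3 h and 2.56 after 6 h. By the ratio of variance to mean, Trp53 had 1.21, 1.10 and 1.18 in the 3 libraries and Zmat3 1.12, 1.19 and 1.05, beside a median of all genes of 1.07, so the order of these 2 genes depends on the measure.

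Of the remaining genes, Zmat3 was seen in 37.1% of control cells, 25.5% after 3 h and 29.6% after 6 h, and Phlda3 in 52.7%, 44.97% and 55.4%. Mdm2 was seen in 54.6%, 59.6% and 60.7%, Mdm4 in 62.0%, 57.0% and 60.1%, Ccng1 in 63.9%, 58.0% and 60.8%, and Trp53inp1 in 26.98%, 26.1% and 26.2%. Free RNA, read from barcodes with 10 to 100 UMIs, held Cdkn1a at 17.8 CPM in the control, 20.6 after 3 h and 49.99 after 6 h. No cell type that lacks these genes is present to set a background share, and how far free RNA adds to the shares was not tested.

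**Figure D3:**
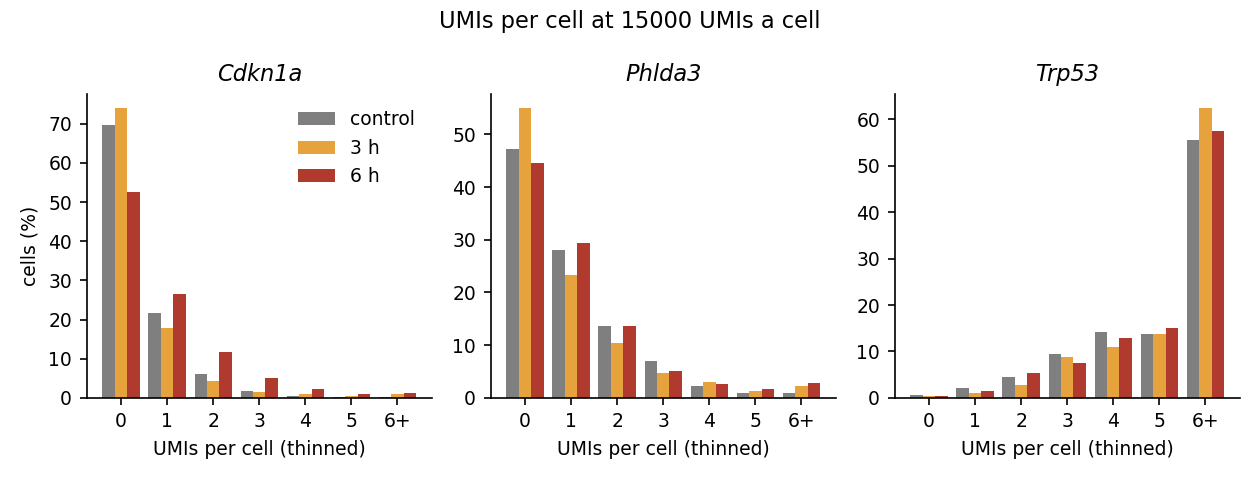
Share of cells (y axis, %) by the number of UMIs of Cdkn1a, Phlda3 and Trp53 in a cell (x axis) after thinning each cell to 15000 UMIs, for the control, 3 h and 6 h libraries. Cells with no Cdkn1a UMI are most common after 3 h, where 26.0% of cells had one, and the upper Cdkn1a classes are fullest after 6 h, while Trp53 is most often at 6 UMIs or more in each library.

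Across single cells, the 7 genes other than Trp53 varied together in each library, and Trp53 RNA showed no clear variation with them. The Pearson correlation of log2(thinned UMIs + 1) was computed over the cells of 1 library at a time, which share that library and, after thinning, their depth. Over the 21 pairs of the 7 genes the median r was 0.147 in the control (n = 2187 cells), 0.268 after 3 h (n = 1739) and 0.209 after 6 h (n = 2554). At least 0.1 was reached by 19, 21 and 18 of the 21 pairs. As background, each of the 7 was set against 3512 or 3513 genes averaging at least 0.5 thinned UMIs a cell in each library. The median of those r lay between -0.012 and 0.004 by gene and library, and the 99th percentile between 0.060 and 0.151. For the subsets of cells below, this background was not computed. The 7 pairs with Trp53 lay between -0.04 and 0.06 over the 3 libraries. Trp53 counts varied little beyond counting error, which limits how high its r can be. Their ratio of variance to mean was 1.21, 1.10 and 1.18 in the control, 3 h and 6 h libraries, beside 1.12, 1.19 and 1.05 for Zmat3.

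The pair with the highest r was Mdm2 and Phlda3 in the control, at 0.317, Trp53inp1 and Phlda3 after 3 h, at 0.478, and Ccng1 and Phlda3 after 6 h, at 0.300. Cdkn1a and Phlda3 had an r of 0.17 in the control, 0.43 after 3 h and 0.27 after 6 h. The 3 h library had the higher r than the control in 19 of the 21 pairs and than the 6 h library in 21. The 6 h library had the higher r than the control in 11 of the 21, so no order of those libraries is read from the pairs. Pairs with Zmat3 had r between 0.08 and 0.19. How strongly 2 sparse genes can correlate depends on their counts, and differences of r between libraries were not tested.

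**Figure D4:**
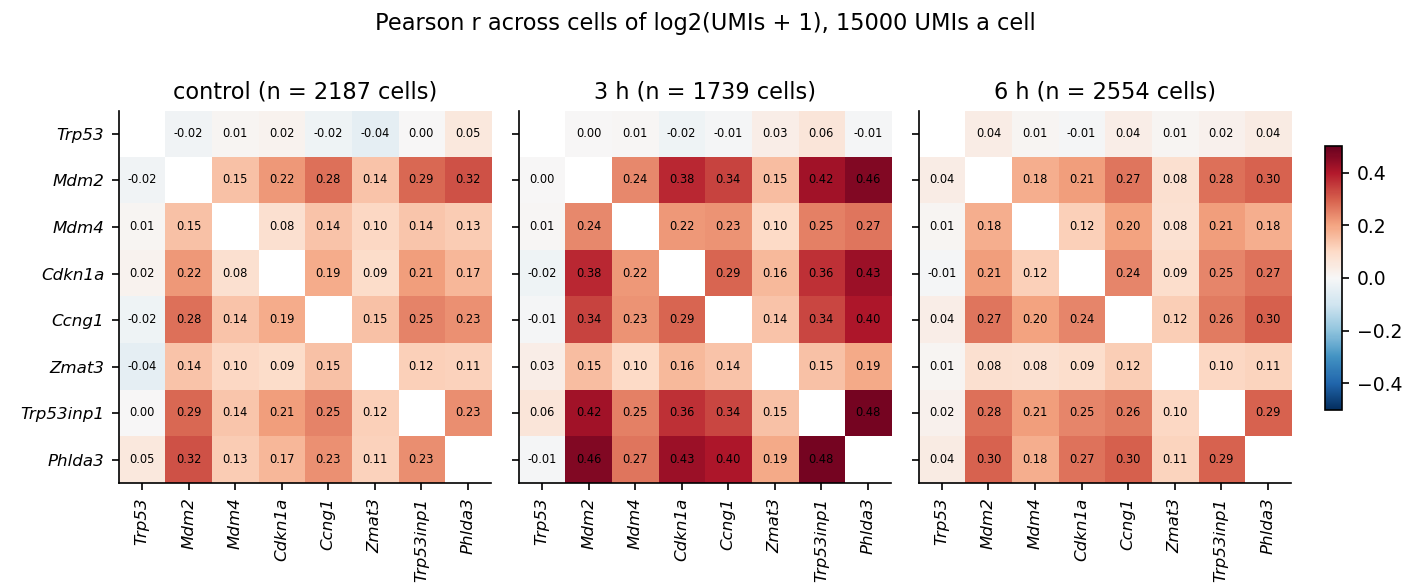
Pearson r across cells for each pair of the 8 genes (rows and columns) in the control, 3 h and 6 h libraries, from log2(UMIs + 1) at 15000 UMIs a cell. The row of Trp53 stays between -0.04 and 0.06, and the block of the other 7 genes is strongest after 3 h, where it reaches 0.478.

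The mitochondrial share of a cell moved with these genes, with r between 0.05 and 0.22 for the 7 genes and between -0.10 and -0.05 for Trp53. Among the cells in the middle of 3 equal ranges of mitochondrial share the median r of the 21 pairs was 0.131 in the control, 0.273 after 3 h and 0.146 after 6 h, and 16, 15 and 17 pairs reached 0.1, in 729, 579 and 851 cells. In the middle of 3 equal ranges of total UMIs it was 0.203, 0.316 and 0.209, with 16, 21 and 17 pairs at 0.1, and without cells above 2 times the median UMIs, where doublets would lie, 0.156, 0.286 and 0.213, with 19, 21 and 18 pairs.

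By the rule that names the genes of most similar pattern over cells (mean r over the 3 libraries, among genes with at least 0.5 thinned UMIs a cell in each), Mdm2 was followed by Phlda3 (0.359), Ccng1 (0.295) and Sdc4 (0.276). Ccng1 was followed by Phlda3 (0.310), Mdm2 (0.295) and Sdc4 (0.269). For Phlda3, Mdm2 and Ccng1 were followed by Psrc1 (0.270), and for Mdm4 the values of Phlda3, Ccng1 and Mdm2 were each 0.19. Sdc4 encodes the cell surface proteoglycan syndecan 4 and Psrc1 a protein of the mitotic spindle. Cdkn1a, Zmat3 and Trp53inp1 were below that level in a library and were not ranked. Trp53 had no gene at a mean r of 0.15, and its highest was 0.080 with the ribosomal gene Rpl23.

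The 7 genes were then summed in each thinned cell, a step chosen after the correlations were seen. The mean sum was 5.72 UMIs in the control, 5.56 after 3 h and 6.15 after 6 h, with medians of 5, 4 and 5. The highest sum in a cell was 32, 73 and 53, and cells with at least 15 UMIs were 4.53% in the control (3.69 to 5.48%), 6.67% after 3 h (5.54 to 7.95%) and 6.07% after 6 h (5.17 to 7.07%). The 99th percentile was 22, 34 and 31.5 UMIs, so the means differed little while the top cells of both treated libraries held more.

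To place Cdkn1a in that tail without using its own counts, cells were ranked by the sum of the other 6 genes, and the top 10% of cells of each library was set against the other cells. In the top 10% Cdkn1a had a mean of 1.01 UMIs a cell in the control, 2.23 after 3 h and 2.37 after 6 h. In the other cells it had 0.371, 0.282 and 0.709. At 3 h the top 10%, 173 cells, held 46.6% of the thinned Cdkn1a UMIs, against 23.2% in the control and 27.1% after 6 h.

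Set against the control, Cdkn1a after 3 h had a log2 ratio of 1.13 (0.89 to 1.38) in the top 10% and -0.39 (-0.57 to -0.22) in the other cells. At 6 h the ratios were 1.22 (1.00 to 1.46) and 0.93 (0.81 to 1.06). Between 6 h and 3 h the top 10% differed by 0.09 (-0.09 to 0.28) and the other cells by 1.33 (1.18 to 1.48). Intervals for sets of cells, here and below, leave out the spread between cells and so are too narrow. For Cdkn1a after 3 h the ratio of variance to mean over cells was 3.738. The summed Cdkn1a levels of the control and 3 h libraries were near equal. In this split, Cdkn1a after 3 h was above the control in the cells rich in the other genes and below it in the rest. After 6 h both sets were above the control. These signs to the control held under TMM scaling, per cell, at 25000 UMIs and without the cells of most UMIs. The genes used for ranking correlate with the gene set against them, for most pairs more after 3 h than in the control. The split therefore restates that correlation and is no separate support for it. The top 10% by all 7 genes also had unlike mean sums, 15.5 UMIs in the control, 20.6 after 3 h and 19.2 after 6 h.

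Phlda3 had a like pattern after 3 h, ranked by the 6 genes other than itself, with a log2 ratio to the control of 0.86 (0.68 to 1.04) in the top 10% and -0.40 (-0.52 to -0.29) in the other cells. At 6 h it was 0.85 (0.69 to 1.02) in the top 10% and 0.06 (-0.04 to 0.15) in the rest. Mdm2 after 3 h was 0.86 (0.70 to 1.01) in the top 10% and 0.11 (0.01 to 0.21) in the rest, and Trp53inp1 0.53 (0.29 to 0.77) and -0.23 (-0.42 to -0.05). Their values in the rest change sign with the scaling, to -0.06 for Mdm2 with TMM and 0.04 for Trp53inp1 per cell. Mdm4 after 3 h was 0.48 (0.27 to 0.69) and -0.29 (-0.39 to -0.19), and Ccng1 0.18 (0.01 to 0.35) and -0.37 (-0.47 to -0.27). Zmat3 had a ratio of -0.68 in the other cells (-0.85 to -0.52), with -0.20 (-0.54 to 0.14) in the top 10%. At 6 h against the control, Cdkn1a was the gene of the 7 whose ratio in the other cells was the highest, 0.93, with the next at 0.10 for Mdm2.

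**Figure D5:**
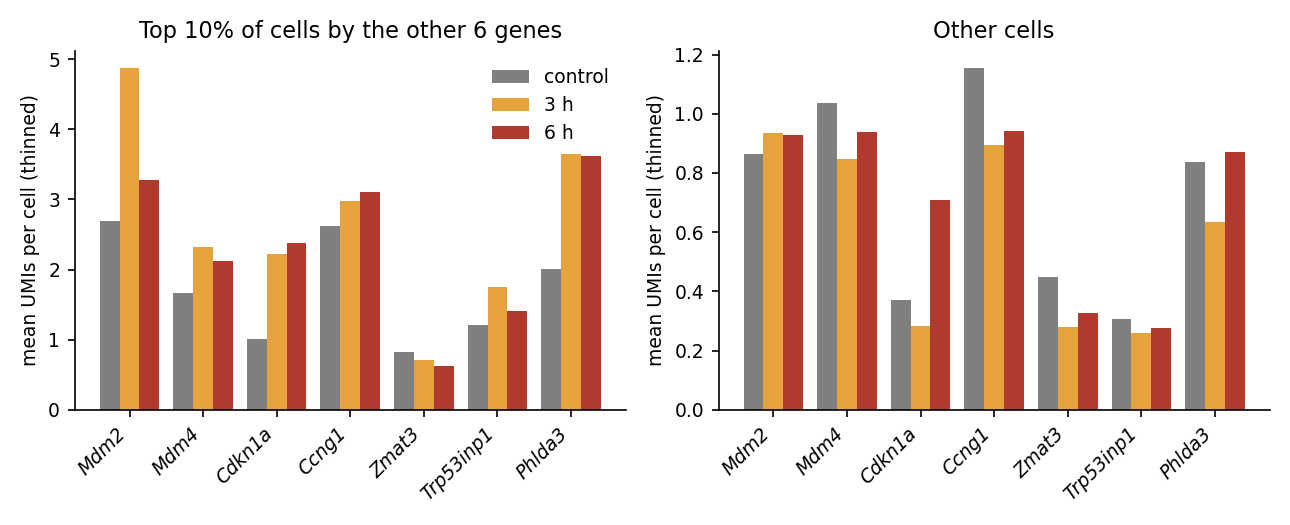
Mean thinned UMIs a cell (y axis, separate scales) of each of the 7 genes in the top 10% of cells ranked by the other 6 genes (left) and in the other cells (right), for the control, 3 h and 6 h libraries. Cdkn1a is near equal after 3 h and 6 h in the top 10%, at 2.23 and 2.37, and far apart in the other cells, at 0.282 and 0.709.

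Cells in the top 10% by the sum of all 7 genes were close to the rest in Trp53 level: 5.92 against 6.13 mean thinned UMIs in the control, 6.67 against 6.53 after 3 h and 6.24 against 6.23 after 6 h. Their mitochondrial share was higher, with medians of 5.19 against 4.53%, 3.82 against 3.49% and 3.31 against 2.87%. Their total UMIs were lower, with medians of 38821 against 43536, 45906 against 52442 and 45173 against 46275. The summed stem cell markers were near equal, at 112 against 109, 122 against 124 and 108 against 111 thinned UMIs. The part of the mitochondrial share in the tail was not tested.

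Other genes that p53 is known to switch on were compared with the sum of the 7 over cells, and 20 of 41 followed it. An r of at least 0.1 with the sum in each of the 3 libraries was reached by 119 of 7965 genes, or 1.49%. Among 41 further p53 target genes with enough UMIs, of 56 listed, 48.8% reached it and 21 genes did not. The 20 comprised 7 of 11 genes of cell cycle and DNA repair, 6 of 10 of apoptosis and 7 of 20 of metabolism and signalling. The kinases and cofactors that activate p53 gave 0 of 11, the other p53 inhibitors 0 of 9, the other CDK inhibitors 0 of 4, the S phase genes 0 of 24 and the stem cell markers 0 of 10. Of 39 G2M phase genes Psrc1 reached it, and that gene is also on the target list. The lists were drawn up with results of these data known.

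The highest mean r belonged to Plk2, a polo-like kinase, at 0.428, and to Btg2, an antiproliferative factor, at 0.416. Plk2 had r of 0.364 in the control, 0.533 after 3 h and 0.386 after 6 h, and Btg2 0.369, 0.4998 and 0.381. Ddit4l, Sdc4 and Serpine2, which are not on the lists, came next at 0.399, 0.348 and 0.323. Of the first 10 genes 4 were listed targets, and of the first 20, 8. Perp, a membrane protein of apoptosis, had a mean r of 0.316 and Bbc3, which encodes the death protein Puma, 0.279. The genes were named in order of r after the values were seen.

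At the other end, an r of -0.1 or lower in each library was found for 54 genes, or 0.678%. The lowest mean values were -0.308 for the histone variant gene H2afz, -0.267 for Npm1, the nucleolar protein nucleophosmin, and -0.199 for Phgdh, an enzyme of serine synthesis. The ribosomal protein genes Rpl21 and Rpl22l1 came next, each at -0.198. Npm1 is also on the list of nucleolar and ribosomal proteins that bind Mdm2, of which it was the 1 of 9 to reach that limit. The list as a whole lay low, with a median r of -0.058 in the control, -0.087 after 3 h and -0.134 after 6 h. Over all 7965 genes the medians were 0.004, 0.009 and 0.011.

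Summed over cells, the wider p53 target lists held genes on both sides of the control. Beside them, 13.9% of all genes were at least 1.5-fold higher after 3 h and 2.13% lower, and after 6 h 22.1% and 7.79%. Of 13 cell cycle and repair targets at 10 CPM or more, 3 were at least 1.5-fold higher after 3 h and 1 lower, and after 6 h 3 and 1. Of 10 apoptosis targets 0 were higher or lower after 3 h, and 1 was higher and 0 lower after 6 h, namely Bbc3 with a log2 ratio of 0.73 (0.66 to 0.81). Of 19 metabolism and signalling targets 3 were higher and 2 lower after 3 h, and 4 and 5 after 6 h. The list medians were 0.08, 0.13 and 0.13 after 3 h and 0.10, 0.29 and -0.21 after 6 h, beside 0.11 and 0.17 for all genes.

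Gadd45a, which encodes a stress sensor that binds PCNA, stood at 38.9 CPM in the control, 134 after 3 h and 138 after 6 h. It had the highest ratios of the cell cycle and repair targets, with log2 values of 1.78 (1.73 to 1.83) and 1.83 (1.78 to 1.88). Over cells its r with the sum of the 7 genes was 0.01, 0.02 and -0.02 in the control, 3 h and 6 h libraries. Triap1, an inhibitor of apoptosis, was at 47.7, 96.7 and 142 CPM, and its r was 0.046, -0.0045 and 0.018. Both genes had high ratios in the sums and an r near 0 over cells, and the cause was not tested.

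The long non-coding RNA gene Pvt1 had high ratios in the sums and an r of at least 0.1 over cells. It was at 17.0, 42.8 and 51.9 CPM with r of 0.117, 0.152 and 0.203. Rrm2b, a subunit of ribonucleotide reductase used in DNA repair, was at 6.65, 11.4 and 15.3 CPM, with log2 ratios of 0.78 and 1.204. Ercc5, an excision repair nuclease, was at 17.0, 26.5 and 32.6 CPM, and Sco2, an assembly factor of cytochrome c oxidase, at 16.5, 32.9 and 26.8.

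Sfn, which encodes the cell cycle protein 14-3-3 sigma, was lower in both treated libraries, at 26.2, 11.9 and 5.95 CPM, with log2 ratios of -1.14 (-1.24 to -1.05) and -2.14 (-2.25 to -2.03). Gdf15, a secreted stress cytokine, was at 18.7, 6.56 and 7.95 CPM, and Sesn2, a sensor that restrains mTORC1, at 49.6, 29.4 and 28.3. The receptor gene Epha2 was at 44.6 CPM in the control, 54.8 after 3 h and 15.5 after 6 h, so it was above the control at the first time and below it at the second.

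Upstream of p53, of 10 activating kinases and cofactors at 10 CPM or more, 0 were at least 1.5-fold higher or lower after 3 h, and 1 was higher and 0 lower after 6 h, with medians of 0.19 and 0.31. Of 9 other inhibitors and ubiquitin genes, 0 differed by that much after 3 h and 1 was higher after 6 h, with medians of 0.16 and 0.06. The same 1.5-fold limit was passed upward by 13.9% of all genes after 3 h and 22.1% after 6 h, and downward by 2.13% and 7.79%, with medians of 0.11 and 0.17. Of 9 nucleolar and ribosomal proteins that bind Mdm2, 1 was lower after 6 h, Gnl3, which encodes nucleostemin, at 349, 304 and 171 CPM. Trp63 and Trp73, the other members of the p53 family, stayed below 10 CPM in each library, at most 0.093 and 3.93 CPM.

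Downstream of p21, which acts by holding back cyclin-dependent kinases and so keeps the DREAM repressor complex on cell cycle genes, 15 DREAM target genes were all measured at 10 CPM or more. Of these 0 were at least 1.5-fold higher after 3 h and 1 was lower, and after 6 h 1 was higher and 2 lower, with medians of -0.07 and -0.09. Over all genes the shares were 13.9% higher and 2.13% lower after 3 h, and 22.1% and 7.79% after 6 h. Plk1, a mitotic kinase, was at 114, 60.9 and 43.3 CPM, with log2 ratios of -0.91 (-0.95 to -0.86) and -1.40 (-1.44 to -1.35). Any link of these levels to Cdkn1a was not tested. Of 4 other CDK inhibitors at that level, 1 was higher after 3 h and 2 after 6 h. The one named by the rule, Cdkn2d, an inhibitor of the D-type cyclin kinases, was at 20.9, 47.0 and 74.6 CPM.

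The position of a cell in the cycle was read from the summed S phase and G2M genes, with the cells of each library in 3 equal ranges of each score, which are not phases. Cdkn1a in the highest against the lowest range of the G2M sum had a log2 ratio of 0.14 (-0.08 to 0.37) in the control, 0.43 (0.18 to 0.67) after 3 h and 0.11 (-0.04 to 0.26) after 6 h. By the S sum it was 0.02 (-0.20 to 0.25), -0.41 (-0.65 to -0.17) and -0.02 (-0.17 to 0.12), and at 25000 UMIs a cell the 3 h value was -0.08. Mdm2 by the G2M sum was -0.30 (-0.45 to -0.16) in the control, 0.36 (0.22 to 0.51) after 3 h and 0.16 (0.03 to 0.28) after 6 h, so the control and the treated libraries had opposite signs, a difference that was not tested. By the same sum, in the control, 3 h and 6 h libraries, Ccng1 had -0.31, 0.08 and 0.24 and Phlda3 0.01, 0.39 and 0.44. Trp53inp1 had -0.18, 0.47 and 0.33, Mdm4 -0.09, 0.15 and 0.41, and Zmat3 -0.02, -0.18 and 0.11. Intervals included 0 for Zmat3 in each library, for Ccng1 and Mdm4 after 3 h, and for Phlda3, Trp53inp1 and Mdm4 in the control. For Trp53 the ratios over both sums lay between -0.09 and 0.09.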

How the data were processed

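The deposited matrices hold UMI counts per gene and barcode, made by the authors with Cell Ranger 4.0.0 on mm10 per the submitters' processing notes; the annotation and strand setting are not given in the sources used here. Barcodes with at least 15000 UMIs and 1 to 20% mitochondrial UMIs were kept, doublets were not removed, and UMIs were summed per library (1 per group). CPM carry exact Poisson intervals, log2 ratios exact conditional binomial intervals with 0.5 prior counts, and shares Clopper-Pearson intervals, all at 95%. They cover counting error only. Ratios are called at 1.5-fold among genes averaging 10 CPM or more. Cells were thinned to 15000 UMIs for shares and correlations. TMM factors are from edgeR 4.0.16, and the other steps used Python 3.11.15, numpy 2.4.6, scipy 1.17.1 and pandas 2.3.3. The calculations were tested on simulated data. Other scalings, filters, depths and floors were tried as alternatives. Positions are from GENCODE M21 on GRCm38, which held 32158 of 32285 gene identifiers.

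The genes, lists and rules were chosen with earlier results of these data known. Besides the 8 genes, named genes are list genes at least 1.5-fold from the control in both comparisons or 2-fold in 1, averaging 10 CPM or more, up to 3 from each end of a list, and the 3 genes most alike over cells at a mean r of at least 0.15. Genes outside this rule (Plk2, Btg2, Ddit4l, Serpine2, Perp, Bbc3, H2afz, Npm1, Phgdh, Rpl21, Rpl22l1, Rpl23, Trp63 and Trp73) were named after their values were seen, and the summed-gene analyses were added then.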

Additional observations from a re-analysis of the deposited data

Results flagged for a closer look

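Cdkn1a in free RNA, outside the cells, was at 49.99 CPM in the 6 h library (43.2 to 57.5), above the 17.8 CPM of the control (13.7 to 22.7), from 196 and 64 UMIs. The log2 ratio was 1.48 (1.08 to 1.92), beside 1.08 in the cells.

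Phlda3 had opposite signs at the 2 times, with log2 ratios to the control of -0.07 at 3 h and 0.34 at 6 h, a gap of 0.41 between the treated libraries. The difference was not tested, and each time is 1 library. Counted per cell the 3 h value is 0.20.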

How the results depend on the processing

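No paired analysis was possible because each group holds 1 library. With TMM factors, log2 ratios to the control at 3 h turned to -0.068 for Trp53, -0.071 for Cdkn1a and -0.096 for Trp53inp1, and at 6 h to -0.24 for Trp53 and -0.14 for Mdm2. Cdkn1a moved to 0.80 at 6 h and 0.87 for 6 h against 3 h, and 1 of the 8 genes was then 1.5-fold lower at 6 h. Per cell, the 3 h ratios turned to 0.15 for Mdm4, 0.027 for Ccng1 and 0.20 for Phlda3, and the 6 h ratio of Ccng1 to 0.0053. For 6 h against 3 h, Mdm4 turned to -0.016 and Ccng1 to -0.022. Cdkn1a per cell was 0.37 at 3 h, 1.19 at 6 h and 0.82 between them, and without the cells above 2 times the median UMIs it was 1.02 at 6 h and 0.88 between them. The count of the 8 genes 1.5-fold lower at 3 h was 0 per cell, with no lower mitochondrial limit, without those large cells and at a floor of 50 CPM, where the counts higher at 6 h were also 0 because Cdkn1a is below that floor.

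Over all genes, the counts 1.5-fold higher and lower by CPM, with TMM and per cell were 1057 and 162, 654 and 398, and 2289 and 59 at 3 h. At 6 h, TMM gave 881 and 1285 against 1678 and 593. For 6 h against 3 h they were 132 and 192, 61 and 321, and 45 and 402. At a floor of 50 CPM, where fewer genes are tested, they were 258 and 39 at 3 h, 448 and 192 at 6 h and 21 and 59 between them, and with no floor 6579 and 2398, 9304 and 2811, and 5239 and 2159.

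Shares of cells with a Cdkn1a UMI at 25000 UMIs were 42.5%, 34.6% and 61.4% in the control, 3 h and 6 h libraries, and 59.2%, 54.1% and 76.6% unthinned. At 25000 UMIs the highest r of a pair was 0.360, 0.539 and 0.385, and Spearman's rho reached 0.388 at 3 h and 0.230 at 6 h. In the control at that depth, r of Trp53 turned to 0.0043 with Zmat3 and to -0.042 with Phlda3. Cdkn1a by the S sum moved there to -0.082 at 3 h and 0.13 at 6 h, and 202 genes reached an r of 0.1 with the sum. In the split by the other 6 genes, added after seeing the data, Cdkn1a at 3 h was 1.40 per cell in the top 10%, and -0.57 with TMM and -0.12 per cell in the other cells. At 6 h it was 0.94 and 0.65 with TMM. With TMM, Mdm2 turned to -0.064 in the other cells at 3 h, and to -0.0046 in the top 10% and -0.19 in the other cells at 6 h, and Ccng1 to -0.044 in the top 10% at 6 h. Per cell, Trp53inp1 turned to 0.036 in the other cells at 3 h, and Mdm4 to -0.011 there for 6 h against 3 h. The values under all alternatives run were tallied in 2 sets. The main results include the Cdkn1a ratios. Of these, 107 stayed within the counting interval or within 1.5 times the count, 33 moved beyond it and 1 changed sign. The other results include the ratios of Trp53, Mdm2, Mdm4, Ccng1 and Phlda3. Of those, 602 stayed, 237 moved beyond the limit and 18 changed sign. The cause of these moves beyond the scaling itself was not tested. Depth limits the shares, and 1 library a group limits every comparison.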

Other observations

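The 62 control barcodes left out for a mitochondrial share under 1% differed from the kept control cells in these genes. In them Phlda3 stood at 93.7 CPM (86.4 to 102) beside 63.0 in the kept cells, while Mdm2 was at 23.6 CPM (19.97 to 27.7) beside 67.6, Mdm4 at 20.1 (16.8 to 23.9) beside 69.9, and Trp53inp1 at 5.03 (3.44 to 7.11) beside 25.4. Trp53 was at 368 CPM (353 to 383) beside 406. The treated libraries had 1 and 8 such barcodes, too few to compare.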
